A study of Mus musculus with 6 samples.

Results

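CD4+ T cells of the developing mouse lung made up 1786 of the 61839 single cells in the deposited annotation (2.89%). They are the cells of the one cluster to which the study gave the name CD4+ T cells, and the regulatory T cell (Treg) and CD4+/CD8+ T cell clusters were left out. They were the largest of 5 T cell clusters, which held 3147 cells in all, and accounted for 28.5% of 6264 lymphoid cells. The cells came from 36 C57BL/6 mice whose lungs were perfused, digested whole and profiled by droplet single-cell RNA-seq on postnatal day (P)3, P7 or P14. The pups had lived from the day of birth either in room air (normoxia, 21% O2) or in hyperoxia (85% O2), which arrests the formation of alveoli and serves as a model of bronchopulmonary dysplasia, with 6 mice in each of the 6 groups of age and oxygen level. The mice carried no transgene or deletion, and the nursing dams were moved between the oxygen levels every 2 days. Mice were told apart by a lipid-bound sample barcode (MULTI-seq) and run in 5 pools, each with 3 normoxic and 3 hyperoxic mice of an age, of which 1 pool held both P3 and P7 mice and was loaded as 2 libraries.

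CD4+ T cells are helper lymphocytes that recognise peptides on class II MHC molecules through the T cell receptor, with CD4 as coreceptor and the CD3 chains as its signalling subunits. Naive cells leave the thymus after birth in growing numbers and circulate between blood and lymphoid organs. They carry the homing receptor CCR7. They are held in a resting state by transcription factors such as TCF7, LEF1, KLF2 and FOXO1, and by interleukin 7 received through IL7R. On antigen contact they downregulate this programme, raise glycolysis and respiration, and divide.

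The marker genes of the cluster were compared with those of the other types. In CPM (UMIs of a gene scaled to the summed UMIs of a mouse), averaged over the 34 mice with at least 10 of these cells, Ccr7 (734 CPM), Dapl1, a gene of resting T cells (175 CPM), the T cell receptor alpha constant gene Trac (401 CPM) and Lef1 (630 CPM) were higher than in any of the other cell types with a mouse of at least 10 cells, of which there were 33 with the CD4+ T cells included. Cd4 itself (chr6:124864692-124888221, mm10) stood at 154 CPM and came second after CD4+/CD8+ T cells (335 CPM), and Cd3e (255 CPM) ranked 3. The genes that define the neighbouring clusters were low: Cd8a stood at 6.14 CPM against 261 CPM in CD8+ T cells, Foxp3, the Treg factor, at 3.11 against 99.7 CPM in Treg, and Trdc, the delta chain constant gene, at 12.2 against 1920 CPM in γδ T cells. The nearest types were close for Trac (399 CPM in Treg) and Ccr7 (674 CPM in B cells), and lower for Dapl1 (89.1 CPM) and Lef1 (401 CPM), both in CD8+ T cells. Because the clusters were formed and named from gene expression in these same cells, the values are a description and were not tested. With cells thinned to 1000 UMIs, which leaves out 24 CD4+ T cells and 677 of 6096 gCap cells (general capillary endothelial cells) below that number, a UMI of Cd4 was found in 7.06% to 19.2% of cells of a group, of Cd3d in 61.7% to 69.4%, of Ccr7 in 44.5% to 54.5% and of Dapl1 in 5.88% to 17.3%, while gCap cells of the same mice, which should lack them, gave at most 0.557% for any of the 4. Before thinning, the median was 2726 UMIs in a CD4+ T cell and 2623 in a gCap cell.

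The cells had 518 to 28443 UMIs each, and the sums per mouse ran from 32567 to 512869. The mouse, not the cell, was the replicate in every test. The 2 mice with under 10 cells, both P3 hyperoxia and of the pool with P3 mice alone, were left out of the expression tests. This left 4 mice for that group, of which only P3 hyperoxia 2 was of the pool with P3 mice alone. At P14 the cells of hyperoxic mice were slightly deeper (median 2538 ± 186 against 2264 ± 98.4 UMIs, SD, n = 6, exact permutation test, adjusted p = 0.0260), and at P3 and P7 the difference did not pass (adjusted p = 0.376 and 0.140). The assigned sample barcode had the most barcode reads in 1644 of the 1786 cells, but in only 47 of the 84 cells of the pool with P3 mice alone. Of the cell barcodes, 27 also occurred in another library, none of them in a second CD4+ T cell. UMIs of genes of other cell types were found in every group, and their source was not tested. Summed over a marker list, the surfactant gene Sftpc of AT2 cells stood between 569 and 4709 CPM. The club cell gene Scgb1a1 stood between 538 and 1688 CPM, and 2 collagen genes at up to 1290 CPM. The 3 NK cell genes reached at most 131 CPM in a mouse and the 3 ILC2 genes 21.8 CPM. Of these, the NK cell gene Ncr1 and the ILC2 gene Il5 had no UMI in any group. The 3 globin genes of the erythroid list were at 40.6 to 15645 CPM in P7 normoxia, with a median of 7121. The other groups had medians of 13.3 to 240 CPM. Among these, the highest mouse was at 9725 CPM in P7 hyperoxia and at 4234 CPM in P14 normoxia. The 3 B cell genes (Cd79a, Ms4a1 and Igkc) were at 9.74 to 210 CPM in P14 normoxia, with a median of 178, and at 0 to 13.3 CPM in P14 hyperoxia. By Y-linked genes over all cells of a mouse, males were 2 of 6 in P3 and in P7 normoxia, 5 of 6 in P3 and in P7 hyperoxia, and 3 of 6 in both P14 groups.

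In normoxia the CD4+ T cells were a larger share of all lung cells at P14 than at P3, while their share of lymphoid cells or of T cells did not pass the test. At P3 they were 0.451% to 2.14% of all cells of a mouse, with a median of 1.14%. At P7 the range was 0.849% to 5.78% around a median of 2.59%, and at P14 it was 3.52% to 6.65% around 6.01%. Every P14 mouse lay above every P3 mouse, whereas the P7 mice overlapped both. The rise from P3 to P14 was 4.47 percentage points (from 1.17% ± 0.657 to 5.65% ± 1.19, SD, n = 6 each, exact permutation test, two-sided p = 0.00216, the smallest that 6 against 6 mice allow, adjusted p = 0.0170 over 34 cell types and 3 comparisons). The call was lost with other denominators: the rise from P3 to P14 was 8.67 points of lymphoid cells and 4.20 points of T cells (exact permutation test, adjusted p = 0.250 and 0.611). The steps of 1.80 points from P3 to P7 and 2.67 points from P7 to P14 did not pass (exact permutation test, adjusted p = 0.225 and 0.110). On cell numbers, edgeR's test passed for P14 against P7 (log2 fold change 1.33, SE 0.405, adjusted p = 0.0105) and P14 against P3 (2.38, SE 0.441, adjusted p = 0.000154) and not for P7 against P3 (1.05, SE 0.444, adjusted p = 0.0631). Of all 102 such comparisons of cell types between ages, 20 passed (19.6%). P14 mice were in other pools than the younger mice, so age and pool cannot be told apart for P14. The pools also differed within the younger ages. At P7 normoxic mice had a mean of 1.10% in the pool shared with P3 mice and 4.85% in the other. At P3 they had 1.73% in the shared pool and 0.620% in the other. Within the shared pool, P7 mice (0.849% to 1.32%) lay below P3 mice (1.48% to 2.14%), 3 mice each. This is opposite to the step from P3 to P7 over both pools, and the part of the pool in that step was not tested.

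At P14 the share was lower in hyperoxia, by a difference that did not pass the test adjusted over all cell types. The 6 hyperoxic P14 mice had 1.26% to 5.90% of CD4+ T cells, with a median of 2.30%, against a median of 6.01% in normoxia. Only the highest hyperoxic mouse reached into the normoxic range. The difference of 2.93 percentage points (2.72% ± 1.65 against 5.65% ± 1.19, SD, n = 6 each) had an exact permutation p of 0.0108 but did not pass after adjustment over all cell types and ages (adjusted p = 0.0613), and it was seen within both P14 pools, at -3.15 and -2.70 points. Of 102 comparisons between oxygen levels, 14 passed (13.7%). The call depended on the measure. Among T cells alone, the CD4+ share fell from 62.5% ± 3.63 to 45.7% ± 11.8 (SD, n = 6 each, exact permutation test, adjusted p = 0.0325), and edgeR's quasi-likelihood test on cell numbers gave a log2 fold change of -1.32 (SE 0.408, adjusted p = 0.0253). Among lymphoid cells the difference was -9.23 points and did not pass (exact permutation test, adjusted p = 0.140), nor did the share of all cells with the pool as a block (permutation test within pools, adjusted p = 0.0729). Without the mouse P14 hyperoxia 2, which had 5.90%, the difference was -3.56 points (exact permutation test, adjusted p = 0.0368). At P3 (0.997% ± 0.537 against 1.17% ± 0.657) and P7 (4.27% ± 2.25 against 2.98% ± 2.15) the oxygen levels overlapped (SD, n = 6 each, exact permutation test, adjusted p = 0.818 and 0.591). Within pools the difference was 0.0670 and -0.423 points at P3 and 1.68 and 0.904 points at P7. The 0.904 points, in the pool with P7 mice alone, rested on P7 hyperoxia 5. That mouse had 10 CD4+ T cells among only 125 cells (exact 95% interval of the share 3.90% to 14.2%). In the same pool P7 hyperoxia 4 and 6 had 3.73% and 5.53%, against 3.86% to 5.78% in normoxia. Without P7 hyperoxia 5 the P7 difference over both pools was 0.545 points. In the pool shared by both ages the P7 mice did not overlap, with 0.849% to 1.32% in normoxia and 1.63% to 4.05% in hyperoxia (3 mice each, a number at which an exact test cannot pass). The effect at P14 differed from that at P7 by -4.22 points and from that at P3 by -2.75 points (permutation test with 100000 resamples, adjusted p = 0.102 and 0.127), and none of the 68 such differences over cell types passed (0%; 0 of 68). These are shares of the cells recovered by digestion, so a lower share cannot be told apart from a greater yield of other cells.

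**Figure D1:**
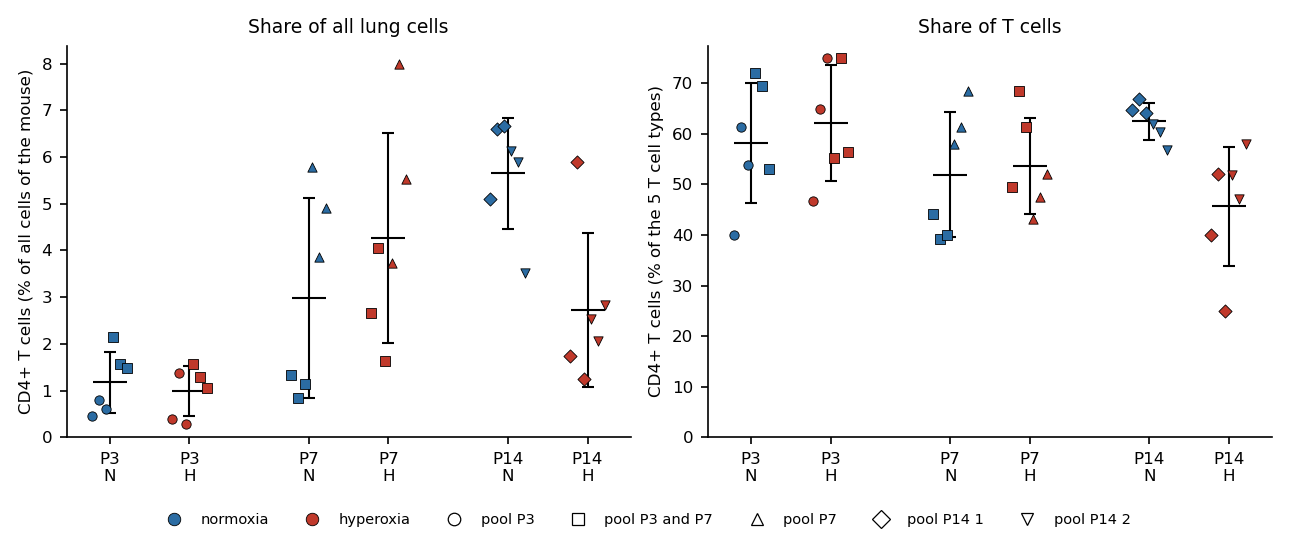
CD4+ T cells as a percentage (y axis) of all cells of a mouse (left) and of its cells of the 5 T cell types (right). P3, P7 and P14 mice are shown in normoxia (N) and hyperoxia (H). Each point is a mouse, its shape marks the pool, and the bar is the mean ± SD of 6 mice. On the left the P14 normoxic mice sit between 3.52% and 6.65%, and 5 of the 6 P14 hyperoxic mice sit at or below 2.83%.

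More genes differed between ages in normoxic CD4+ T cells than between oxygen levels. The 2 kinds of comparison are unlike, since every pool held both oxygen levels but P14 mice were in other pools than younger mice. Age and pool thus cannot be told apart for genes in any comparison of P14 with P3 or P7. The oxygen levels at P3 were not balanced over pools in the tests of genes, because both mice left out were of the pool with P3 mice alone. A gene was called changed under 2 conditions: an adjusted p under 0.05 in edgeR's quasi-likelihood test on UMIs summed per mouse, and a UMI in 10% or more of the cells of a compared group. Of 2566 genes tested, 886 changed between P3 and P14 (34.5%), of which 422 were higher (16.4%) and 464 lower (18.1%) at P14. From P7 to P14, 478 changed (18.6%, with 225 or 8.77% higher and 253 or 9.86% lower), and from P3 to P7 88 changed (3.43%, with 43 or 1.68% higher and 45 or 1.75% lower). The median log2 fold change over all genes was -0.0045 between P3 and P14. The cells of normoxic mice differed in depth between ages and, at P3, between pools. The medians were 3396 ± 1462 UMIs at P3, 3953 ± 416 at P7 and 2264 ± 98.4 at P14 (mean ± SD over 6 mice). At P3 they were 1909 to 2274 UMIs in the pool of P3 mice alone and 4202 to 5081 in the pool shared with P7 mice. The P14 mice had 2136 to 2394 UMIs. With cells thinned to at most 1000 UMIs, which leaves fewer genes to test, 104 genes changed from P3 to P14 (14.8% of those tested), 86 from P7 to P14 (12.2%) and 4 from P3 to P7 (0.567%). These counts rested in part on single mice: without P3 normoxia 5 the counts were 569 for P3 to P14 and 13 for P3 to P7, and without P7 normoxia 4 or P14 normoxia 3 the count for P7 to P14 was 279 or 309. One pool held both P3 and P7 mice. With the pool as a block 159 genes changed from P3 to P7, among them 53 of the 88, and within the shared pool alone 29 changed, among them 17 of the 88.

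Most genes of the list for the naive and resting state were higher at P14. Of the 26 genes of that list, all of which were tested, 18 were higher at P14 than at P3 and none was lower. Among all genes 16.4% were higher, and the list's median log2 fold change was 0.76. This list and those that follow were chosen with earlier results of these data known, so their counts are a description. Il7r, which receives the survival signal of interleukin 7, stood at 123 to 410 CPM at P3 (median 226), 234 to 599 at P7 (median 340) and 632 to 864 at P14 (median 712). The P14 mice were all above the younger mice. Its log2 fold change from P3 to P14 was 1.39 (SE 0.20, edgeR adjusted p = 1.68e-06), and Txnip, an inhibitor of glucose uptake, and Tob1, an inhibitor of cell division, rose by 1.27 and 1.52 on the log2 scale. Lef1 went from a median of 452 to 826 CPM and Tcf7 from 604 to 1055 CPM. The count was 15 of 26 without the pool of P3 mice alone, 13 of 25 without mitotic cells (defined further on) and 10 of 21 with cells thinned to at most 1000 UMIs, and no member was lower in any of these, beside 25.7%, 16.1% and 14.8% of all genes changed in either direction.

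Among the 4 markers of the cluster, Cd4 and Dapl1 rose while Ccr7 and Cd3e did not pass. Cd4 stood at 49.1 to 160 CPM at P3 and at 171 to 249 CPM at P14 in normoxia, with no overlap (log2 fold change 0.87, SE 0.21, edgeR adjusted p = 0.00149). Dapl1 (chr2:59484653-59505020) went from 0 to 209 CPM at P3 (median 103) to 181 to 378 CPM at P7 (median 321) and 208 to 316 CPM at P14 (median 257). Most of its difference was thus between P3 and P7, although that step did not pass by itself (log2 fold change 1.13, edgeR adjusted p = 0.0617), while P14 against P3 did (1.14, SE 0.34, adjusted p = 0.00853). Ccr7 (chr11:99144196-99155077) had medians of 591, 688 and 899 CPM, and Cd3e (chr9:44998740-45009627) had medians of 208, 274 and 269 CPM at P3, P7 and P14 (edgeR, P14 against P3, adjusted p = 0.166 and 0.310).

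Of the 20 tested receptors and other genes of cytokine response and migration, 11 were higher and none lower at P14 than at P3, against 16.4% higher and 18.1% lower among all genes (median log2 fold change 0.72). Itga6, the integrin α6 chain that binds laminin, was at 0 to 87.0 CPM at P3 (median 40.2), 96.8 to 160 at P7 (median 141) and 134 to 245 at P14 (median 167). The P3 mice lay below all older mice, and the step from P3 to P7 already passed (log2 fold change 1.76, SE 0.35, edgeR adjusted p = 0.00336). Il6st, the signalling chain of the interleukin 6 receptor family, rose by 1.63 on the log2 scale from P3 to P14. Cxcr4, which responds to the chemokine CXCL12, rose between P7 and P14 by 1.68 on the log2 scale, from 0 to 55.0 CPM (median 25.1) to 73.5 to 112 CPM (median 94.5).

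Of 25 members of the T cell receptor list, 10 were higher and 4 lower at P14 than at P3 (median log2 fold change 0.37). Among all genes 16.4% were higher and 18.1% lower, so that the lower members were near the share of all genes. The adaptors Trat1 (1.43) and Grap2 (0.97) and the coreceptor Cd6 (0.89) had the largest increases, and Cd28, the costimulatory receptor, was also higher. The adhesion receptor Cd2 fell by 0.82 on the log2 scale. The receptor β constant genes Trbc1 and Trbc2 fell by 0.61 and 0.58, and Cd3g was lower too. The β constant genes are near-identical copies whose reads can be split between them.

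**Figure D2:**
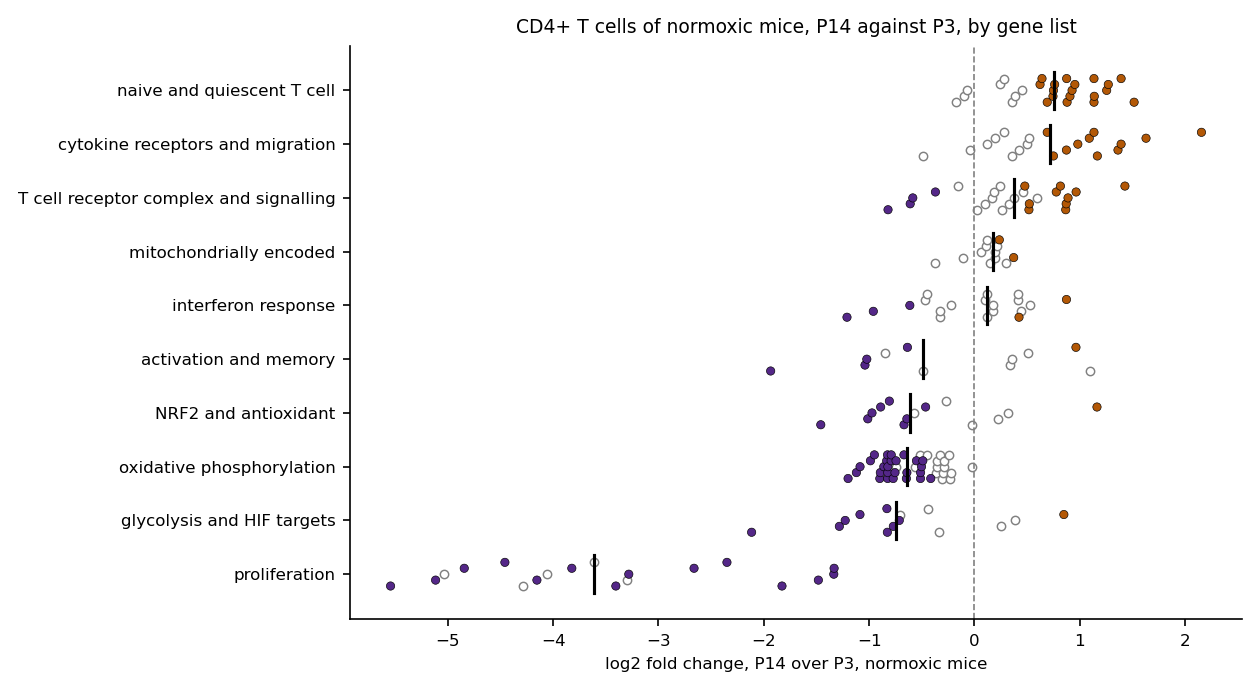
Log2 fold change in CD4+ T cells of normoxic mice at P14 over P3 (x axis) for the tested genes of 10 gene lists (y axis); filled points passed the edgeR test (orange higher, purple lower at P14), open points did not, the black tick is the list's median and the dashed line the median of all genes. The naive list (median 0.76) and the list of cytokine receptors and migration (0.72) lie to the right. The proliferation list (-3.61) lies far to the left, with members that could pass the filter on low counts through the P3 mice alone.

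Several genes of cell division were lower at P14 than at P3. Of 34 genes on the proliferation list, 14 were called lower, 5 were tested without a call and 15 did not pass the filter on low counts. In the test over all ages 6 of the 34 passed that filter. A division gene at a high level in P3 mice alone could pass the filter between ages, so the tested members were in part selected for the difference, and the count and the median log2 fold change of -3.61 over the 19 tested are a description and no support for a direction of the list. Hist1h1b, a replication-dependent linker histone, was at 24.6 to 464 CPM at P3 (median 93.4), 0 to 82.5 CPM at P7 (median 40.7) and 0 to 22.6 CPM at P14 (median 3.51), a log2 change of -5.54 (SE 0.78, edgeR adjusted p = 8.07e-07). Nusap1 (-5.12) and Birc5 (-4.84), which act on the mitotic spindle, and Spc24 and Cdca8, of the kinetochore and chromosomal passenger complex, fell by 5.03 and 4.88 on the log2 scale. Stmn1, a microtubule regulator of dividing cells, fell by 2.19 on the log2 scale between P7 and P14. Leaving out mitotic cells lowered the number of changed genes between P3 and P14 from 886 to 373 and between P3 and P7 from 88 to 6.

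Few cells held UMIs of several mitotic genes. Cells with at least 3 UMIs of 11 mitotic genes were 15 of 96 in P3 normoxia (15.6%), 12 of 283 at P7 (4.24%) and 5 of 758 at P14 (0.660%). The same count in hyperoxia was 15 of 99 (15.2%), 8 of 318 (2.52%) and 10 of 232 (4.31%). Single mice weighed on these shares. In P3 hyperoxia 10 of the 15 cells came from the mouse P3 hyperoxia 4 (31.25% of its cells). In P7 normoxia 6 of the 12 came from the mouse P7 normoxia 4. At equal depth of 1000 UMIs, a mitotic UMI was found in 23.96%, 7.07% and 2.84% of normoxic and 18.4%, 4.13% and 6.06% of hyperoxic cells at P3, P7 and P14. The 10 mitotic cells of P14 hyperoxia all held a UMI of a CD3 chain, 4 one of Cd4, 2 one of Cd8a and none one of Foxp3. They had a median of 5062 UMIs against 2480.5 in the other cells of that group, and 4 of the 10 came from the mouse P14 hyperoxia 5 (10.0% of its cells). The same thinned share in CD8+ T cells was 27.8%, 13.6% and 5.97% in normoxia and 41.7%, 16.4% and 17.2% in hyperoxia. In B cells it was 19.1%, 9.34% and 4.07% in normoxia and 19.6%, 10.9% and 5.33% in hyperoxia.

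**Figure D3:**
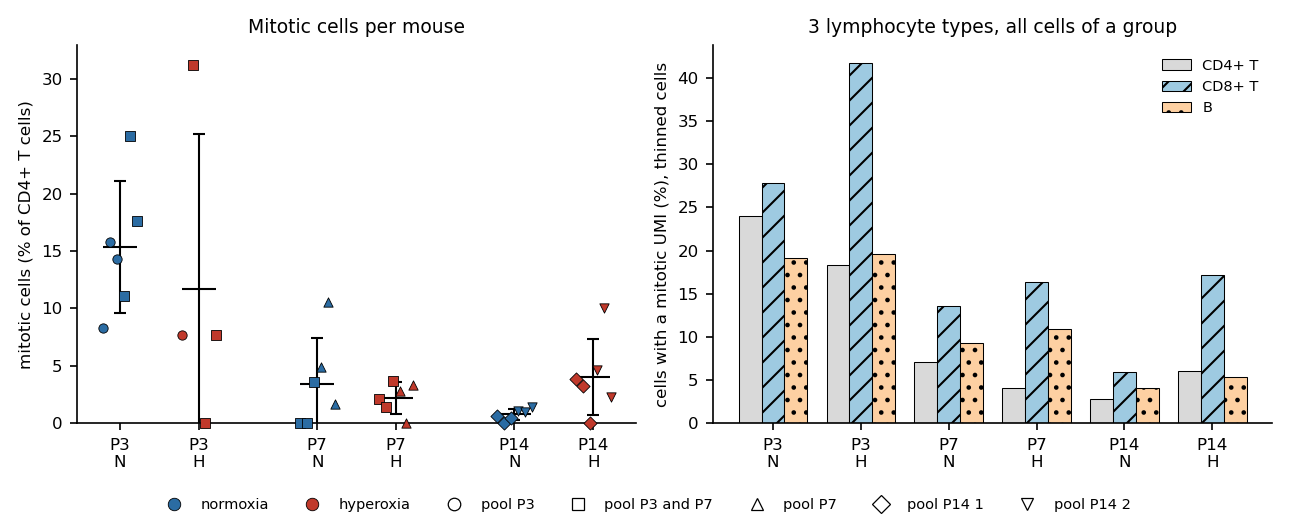
Left, percentage of CD4+ T cells of a mouse with at least 3 UMIs of mitotic genes, by age and oxygen level (N normoxia, H hyperoxia), each point a mouse; right, percentage of cells with a mitotic UMI after thinning to 1000 UMIs in CD4+ T, CD8+ T and B cells, all mice of a group together. P14 normoxia is lowest in each type (2.84%, 5.97% and 4.07% in the right panel).

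Many promoters of genes that peak in mitosis pair the CCAAT box, bound by NF-Y, with the cell cycle homology region TTTGAA, through which the DREAM and MuvB complexes act. Among the 14 lowered proliferation genes, 12 had a promoter window in the RefSeq table of the mouse genome (GRCm38.p6), and in the 250 bases before the start 8 held CCAAT on either strand, against 33.8% of 32851 windows. The sequence TTTGAA on either strand was present in 5, against 16% of windows, and both were present in 5, against 5.55%. A match of so few letters is a description of the window and not a binding site. The windows of 3 genes with both motifs, Top2a (topoisomerase IIα, chr11:99024190-99024439, minus strand), Mki67 (the proliferation antigen Ki-67, chr7:135716380-135716629, minus strand) and Ube2c (a ubiquitin carrier of the anaphase-promoting complex, chr2:164769679-164769928, plus strand), are shown 5′ to 3′ to let the motifs be seen in place, with CCAAT or its complement ATTGG and TTTGAA or its complement TTCAAA in capitals. In Ube2c a CCAAT and an ATTGG overlap.
Top2a: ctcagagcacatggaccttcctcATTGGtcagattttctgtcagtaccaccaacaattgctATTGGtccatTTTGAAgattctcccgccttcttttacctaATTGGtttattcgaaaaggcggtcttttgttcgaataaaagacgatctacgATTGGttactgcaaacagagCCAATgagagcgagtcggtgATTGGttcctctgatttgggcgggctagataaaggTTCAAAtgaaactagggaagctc
Mki67: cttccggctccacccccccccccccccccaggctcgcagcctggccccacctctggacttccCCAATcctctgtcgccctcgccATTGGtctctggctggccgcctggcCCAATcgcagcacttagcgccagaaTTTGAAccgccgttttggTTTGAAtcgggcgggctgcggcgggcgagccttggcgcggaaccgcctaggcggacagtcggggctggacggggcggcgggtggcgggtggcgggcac
Ube2c: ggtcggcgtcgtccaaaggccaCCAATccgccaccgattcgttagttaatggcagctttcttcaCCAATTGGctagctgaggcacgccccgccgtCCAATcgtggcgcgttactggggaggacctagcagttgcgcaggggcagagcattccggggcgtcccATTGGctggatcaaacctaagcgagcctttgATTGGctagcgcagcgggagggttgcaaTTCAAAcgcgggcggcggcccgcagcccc

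Part of the genes of energy metabolism were called lower at P14, at depths that differed between ages and, at P3, between pools. Of 43 tested subunits of the respiratory chain encoded in the nucleus, 27 were lower and none higher than at P3, against 18.1% lower and 16.4% higher among all genes (median log2 fold change -0.64). The largest decreases were those of the complex IV subunits Cox5b (-1.20, SE 0.17, edgeR adjusted p = 7.44e-07) and Cox5a (-1.09) and the complex I subunit Ndufc1 (-1.12). Cox5b went from a median of 253 CPM at P3 to 240 at P7 and 138 at P14. Its P14 values of 114 to 180 CPM overlapped both earlier ages at their lower ends. Of the 12 tested genes encoded in the mitochondrion itself, 2 were higher, mt-Co1 and mt-Atp6, and none was lower. With mitotic cells left out 12 of 43 nuclear respiratory genes were lower at P14, beside 16.1% of all genes changed in either direction. With cells thinned to at most 1000 UMIs, which leaves fewer genes to test, 2 of 28 were lower, beside 14.8% of all genes changed in either direction. Few calls of the list were thus left at equal depth, and the part of depth in them was not tested.

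Of 14 tested genes of glycolysis and hypoxia-inducible factor targets, 8 were lower and 1 higher (median -0.74), beside 18.1% lower and 16.4% higher among all genes, which also apply to the 2 lists that follow. The glycolytic enzymes Tpi1 and Gapdh had log2 fold changes of -2.12 and -1.28, while Pdk1, which restrains the entry of pyruvate into mitochondria, was the gene that rose. Of 14 tested NRF2 targets and antioxidant genes, 8 were lower and 1 higher (median -0.61), among them Tkt of the pentose phosphate pathway (-1.46) and Sod2 and Gpx4. Of 11 tested genes of activation and memory, 4 were lower, Lgals1, S100a10, Vim and Crip1, and 1 was higher, the immediate early gene Nr4a1 (median -0.49). Lgals1, which encodes galectin-1, was at 217 to 533 CPM at P3 (median 375), 98.4 to 309 at P7 (median 164) and 80.5 to 181 at P14 (median 94.6). The P14 mice were all below the P3 mice (log2 fold change -1.93, SE 0.25, edgeR adjusted p = 2.24e-07).

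Other genes with large increases from P3 to P14 were H2-Q7, a nonclassical class I gene (log2 fold change 3.36), St8sia6, a sialyltransferase also expressed in the thymus (3.06), the lipid flippase subunit Tmem30a (2.14) and the transcriptional repressor Zbtb20 (2.07). St8sia6 was at 8.14 to 40.5 CPM at P3 (median 16.7), 38.5 to 118 at P7 (median 94.4) and 119 to 204 at P14 (median 149). The classical class I gene H2-K1 rose by 0.79 from P3 to P7 and by 0.87 from P3 to P14 on the log2 scale. Genes of the H2 family share sequence, so their reads can be misassigned. The counts of the following lists stand beside 16.4% higher and 18.1% lower among all genes. Those of the interferon list were near these shares, and those of the dissociation list differed from them by few genes. Of 19 tested interferon genes, 2 (H2-K1 and B2m) were higher and 3 (Bst2, Psmb8 and Slfn2) lower at P14. Of the thymic list, 5 of 16 were tested, of which St8sia6 and Themis were higher and Sox4 lower, and the recombination gene Rag1 was near 0 in every group. Of 8 tested glucocorticoid-responsive genes 4 were higher (Il7r, Txnip, Cxcr4 and Tsc22d3), of 18 genes induced by dissociation 2 were higher and 5 lower, and of 5 p53 targets Sesn1 and Trp53inp1 were higher. Only 3 of 21 genes of the helper lineages were expressed enough to be tested, and of these Stat4, the signal transducer of interleukin 12, fell by 1.39 on the log2 scale.

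Some calls were of genes of other cell types. The 4 globin genes had log2 fold changes of 7.38 to 8.57 from P3 to P7 and of -3.39 to -3.64 from P7 to P14, beside a median of 7121 CPM for the erythroid list in P7 normoxia. Mgp and Eln, matrix genes of stromal cells, rose between P7 and P14 (1.57 and 1.14), while Col3a1 and Sparc were lower and Scgb1a1 higher at P14 than at P3 and Sftpc was lower. Without the pool of P3 mice alone, Col3a1 and Sparc turned to log2 fold changes of 0.69 and 0.39. The part of other cells' RNA in these calls was not tested.

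Hyperoxia changed few genes. In all mice together, with age as a covariate, 6 of 1632 genes changed (0.368%), 4 of them higher and 2 lower in hyperoxia. Both lower genes, of which Dapl1 is described here, are on the naive list. The 4 higher genes were Dusp5, a nuclear phosphatase of ERK that is induced by ERK signalling, Pmepa1, a target and brake of TGF-β signalling, Ier2, an immediate early gene that is also on the dissociation list, and Stat3, the transcription factor of interleukin 6 family cytokines.

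Dusp5 (chr19:53529109-53542431) separated the oxygen levels most clearly at P14, where it was at 123 to 242 CPM in normoxia (median 167) and 251 to 394 CPM in hyperoxia (median 301). At P7 the values were 96.3 to 261 CPM (median 221) and 133 to 481 CPM (median 303), and at P3 98.3 to 239 CPM (median 136) and 105 to 253 CPM (median 199). The groups did not overlap at P14 and overlapped at the younger ages. The log2 fold change over all ages was 0.61 (SE 0.12, edgeR adjusted p = 0.0105). By age the log2 fold changes were 0.24, 0.51 and 0.90 at P3, P7 and P14, of which the last passed (edgeR adjusted p = 0.00957).

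Dapl1 was lower in hyperoxia at each age in the median, 68.2 against 103 CPM at P3, 141 against 321 CPM at P7 and 164 against 257 CPM at P14. The ranges overlapped at each age: 88.7 to 275 CPM in hyperoxia and 181 to 378 in normoxia at P7, and 73.8 to 251 against 208 to 316 at P14. Over all ages its log2 fold change was -0.79 (SE 0.18, edgeR adjusted p = 0.0275), with -0.79, -0.99 and -0.56 at P3, P7 and P14. Of the 24 naive genes tested in this comparison 12 had a positive and 12 a negative fitted change (median 0.01), so the lower levels were of 2 members and not of the list. Cd4, Cd3e and Ccr7 had log2 fold changes of -0.13, 0.05 and -0.07 (edgeR adjusted p = 0.862, 0.939 and 0.909).

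Stat3 (chr11:100885098-100939540) was at 79.1 to 209 CPM in normoxia (median 168) and 189 to 283 CPM in hyperoxia (median 225) at P14, and at P7 at 73.8 to 158 CPM (median 110) and 133 to 226 CPM (median 158). The groups overlapped at both ages, and the log2 fold change over all ages was 0.56 (SE 0.13, edgeR adjusted p = 0.0334). Ier2 (chr8:84661331-84662852) had medians of 405 and 472 CPM at P14, 328 and 436 at P7 and 291 and 369 at P3 in normoxia and hyperoxia (log2 fold change 0.39, SE 0.09, edgeR adjusted p = 0.0333). Pmepa1 (chr2:173224458-173276533) had medians of 65.2 and 108 CPM at P14, 80.2 and 123 at P7 and 53.1 and 102 at P3 (0.75, SE 0.17, edgeR adjusted p = 0.0275). For these genes hyperoxia had the higher median at all ages, but none passed at a single age.

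The count of 6 rested on single mice. The number of changed genes was 1 without P14 normoxia 3 or P14 hyperoxia 6, 2 without P7 normoxia 4, P7 normoxia 6, P7 hyperoxia 3, P14 hyperoxia 1 or P14 hyperoxia 4, and 3 without P3 normoxia 5, P7 hyperoxia 2, P7 hyperoxia 4, P14 normoxia 1 or P14 hyperoxia 3. No gene passed without the age covariate or with thinned cells (1 of the 6 was then tested), 1 passed when the genes tested within ages were used, and 2 passed with at least 25 cells per mouse or with cells that held no UMI of 5 lymphocyte genes of other types (Cd8a, Cd8b1, Foxp3, Cd79a and Ms4a1, 176 cells left out). With the pool as a block 5 of the 6 passed. DESeq2 called the same 6 genes, all 6 kept their direction in the 10 alternatives in which all 6 were tested, and with sex as a covariate, which was uneven between oxygen levels at P3 and P7, 4 of them passed.

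**Figure D4:**
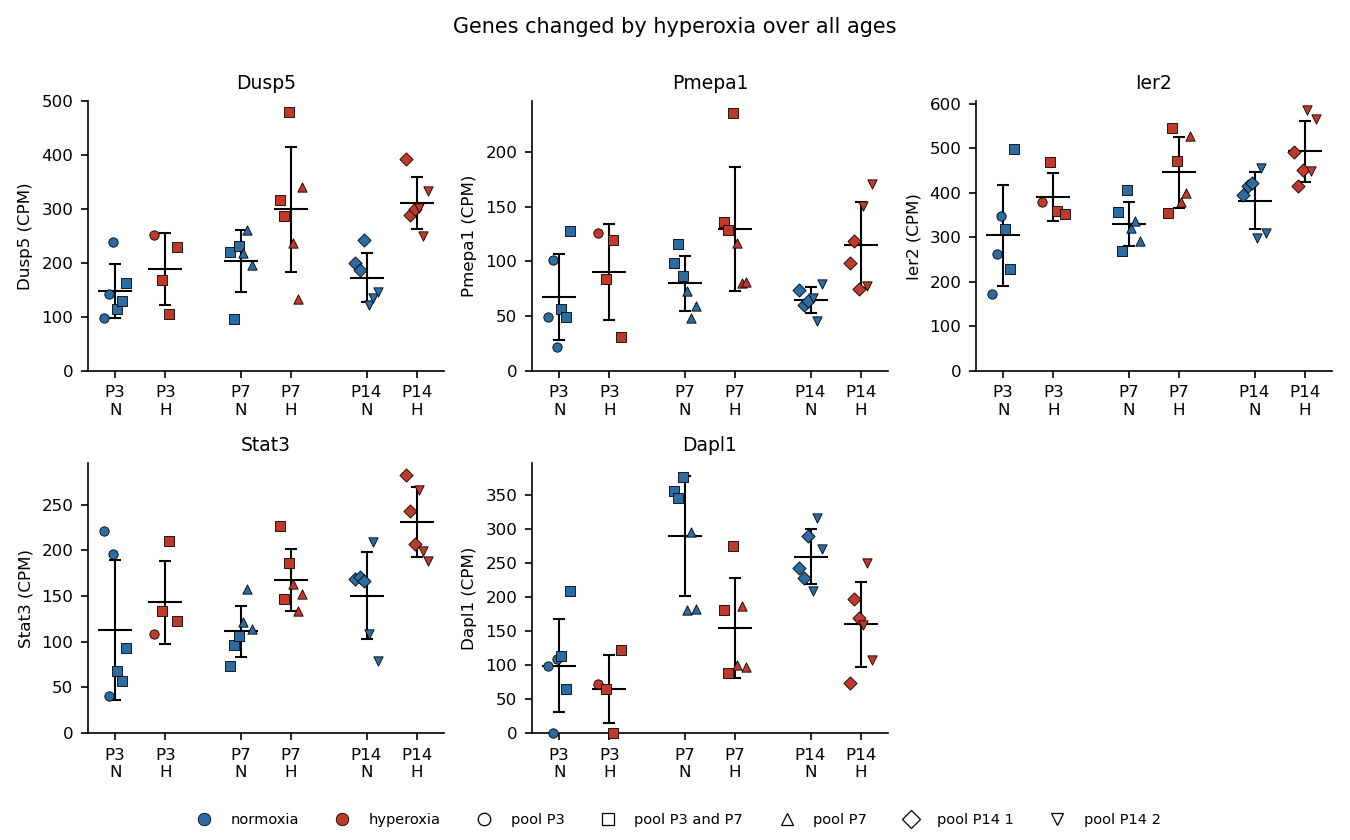
CPM (y axis, linear) of 5 of the 6 genes that changed with hyperoxia over all ages, by age and oxygen level (N normoxia, H hyperoxia); each point is a mouse with at least 10 CD4+ T cells, its shape marks the pool, and the bar is the mean ± SD (n = 6, except 4 in P3 hyperoxia). Dusp5 does not overlap between oxygen levels at P14 (at most 242 CPM in normoxia, at least 251 CPM in hyperoxia).

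At P14 alone, 13 of 2566 genes changed with hyperoxia (0.507%), 11 higher and 2 lower. Those named by size were Stmn1, Elovl6, a fatty acid elongase, Nabp1, a single-strand DNA-binding protein, Fosl2, an AP-1 subunit, and Slbp, the stem-loop binding protein of histone mRNAs, among the higher, and Rfx7, a transcription factor, and Cd28 as the lower genes. Ifi27l2a, an interferon-stimulated gene, Ptma and Dusp5 were also higher. H2afz, a histone variant, Fam102a and the cytoskeletal actin Actg1 complete the 13 and are named after their values were seen.

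Stmn1 (chr4:134468320-134473843) was at 39.6 to 103 CPM in normoxia (median 69.0) and 56.4 to 701 CPM in hyperoxia (median 311), with UMIs in 13.9% and 20.7% of cells. A single hyperoxic mouse, at 56.4 CPM, lay within the normoxic range, and the other 5 lay above it. The log2 fold change was 2.33 (SE 0.42, edgeR adjusted p = 0.00309). With mitotic cells left out it was 0.29 (edgeR adjusted p = 0.925). Of the proliferation list Stmn1 alone met both conditions, since Top2a (3.36) and Mki67 (3.29) and 8 other division genes passed the adjusted p in fewer than 10% of cells. Mki67 was at 0 to 49.3 CPM in normoxia and 0 to 407 CPM in hyperoxia.

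Elovl6 (chr3:129532355-129638495) was at 9.14 to 32.8 CPM in normoxia (median 17.4) and 36.0 to 156 CPM in hyperoxia (median 78.1), and UMIs were found in 4.09% and 16.4% of cells. The 2 groups did not overlap. The log2 fold change was 2.15 (SE 0.47, edgeR adjusted p = 0.0116) with the mitotic cells and 2.25 (edgeR adjusted p = 0.0123) without them. Leaving them out removed 10 cells of P14 hyperoxia, while 26 cells of that group held a mitotic UMI. The part of dividing cells in this difference was thus not tested. Fosl2 was at 71.1 to 144 CPM (median 98.6) and 113 to 308 CPM (median 179), and Nabp1 at 25.7 to 79.1 CPM (median 31.1) and 39.5 to 148 CPM (median 95.8). Both overlapped between oxygen levels (log2 fold change 1.03 and 1.31, edgeR adjusted p = 0.0238 and 0.0456). Ifi27l2a was at 226 to 677 CPM (median 357) in normoxia and 540 to 891 CPM (median 623) in hyperoxia (0.94, SE 0.23, edgeR adjusted p = 0.0244). Of the 19 interferon genes tested, 18 had positive fitted changes (median 0.22) and Ifi27l2a alone changed, beside 0.507% of all genes.

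Rfx7 (chr9:72532240-72622937) was at 152 to 175 CPM in normoxia (median 161) and 56.4 to 111 CPM in hyperoxia (median 79.4). All hyperoxic mice lay below all normoxic mice (log2 fold change -0.86, SE 0.20, edgeR adjusted p = 0.0231). Cd28 (chr1:60716800-60773359) was at 452 to 800 CPM (median 610) and 310 to 508 CPM (median 361), with overlap (-0.62, SE 0.15, edgeR adjusted p = 0.0244). It was the only one of 25 tested T cell receptor genes that changed, beside 0.507% of all genes. Among the 3 genes outside the naming rule, H2afz (469 to 714 against 734 to 1263 CPM) and Fam102a (142 to 158 against 186 to 316 CPM) did not overlap between oxygen levels, and Actg1 did (706 to 1010 against 941 to 1427 CPM). Respiratory chain genes had positive fitted changes in 38 of 43 cases at P14 (median 0.17), and none changed. The 4 tested genes of class II presentation and B cells had negative ones (median -1.78), none changed, and the B cell list was the one at 9.74 to 210 CPM in normoxia and 0 to 13.3 CPM in hyperoxia.

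The count at P14 moved with thinning, the cells used and single mice. With cells thinned to at most 1000 UMIs, which leaves fewer genes to test, 7 of the 13 genes could be tested and 2 passed. The cells were deeper in hyperoxia at this age, and the part of depth in these calls was not tested. With 10 cells drawn per mouse 0 of 7 tested passed, without cells that held a UMI of the 5 lymphocyte genes 2 of 13 passed, and with at least 25 cells per mouse all 13 were among 28 called. The count was 1 without P14 hyperoxia 5, the mouse with 4 of the mitotic cells. It was 4, 6, 5 and 8 without P14 normoxia 1, 2, 3 and 4, and 8 without P14 hyperoxia 1, 2 or 4. With a term for the pool it was 21, in the P14 1 pool alone 19 and in the P14 2 pool alone 8, and 5 with mitotic cells left out. Without these cells Rfx7 and Cd28 lost the call at about the same log2 fold change (-0.82 and -0.63, edgeR adjusted p = 0.0668 and 0.126). Of the 13 genes, 10 were called by DESeq2.

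**Figure D5:**
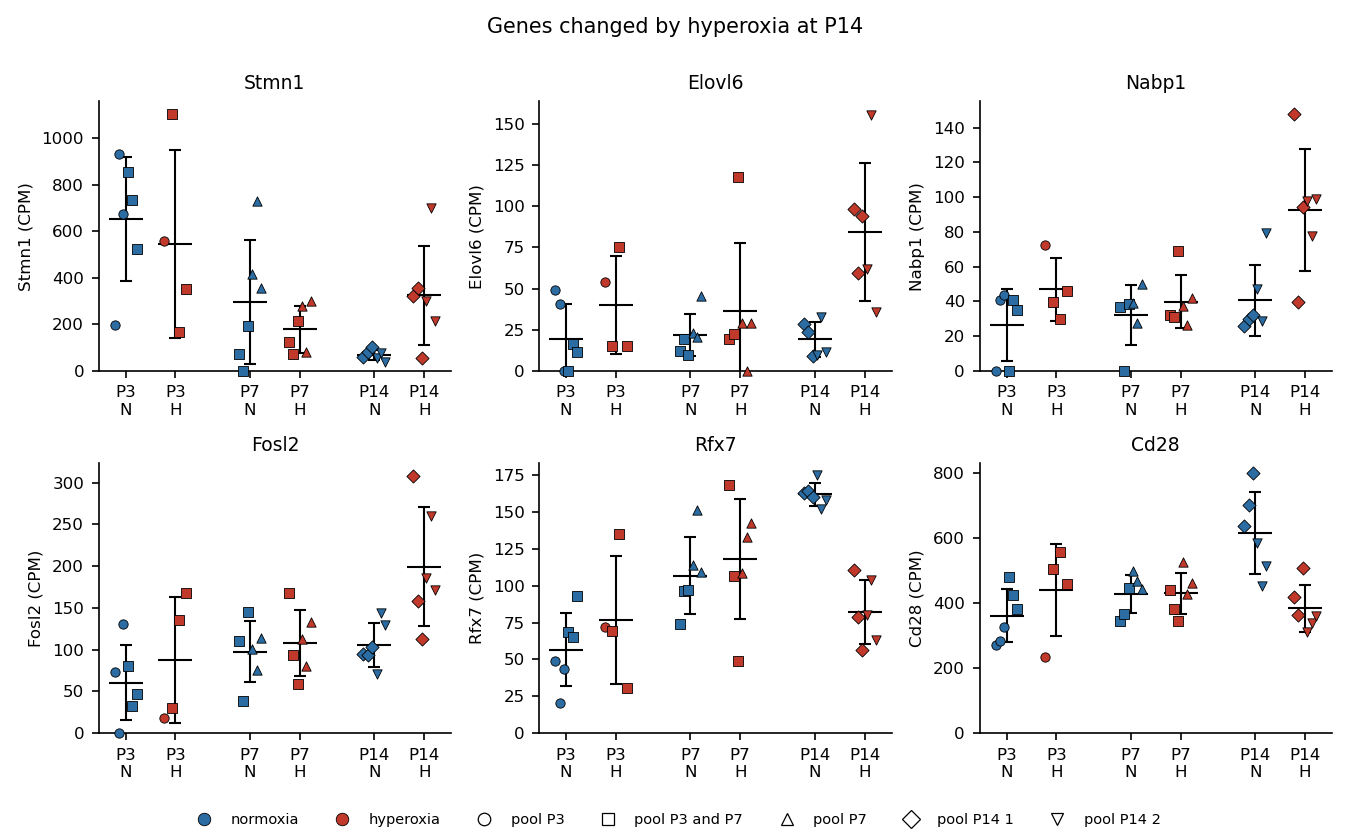
CPM (y axis, linear) of genes that changed with hyperoxia at P14, by age and oxygen level (N normoxia, H hyperoxia). Each point is a mouse with at least 10 CD4+ T cells, and its shape marks the pool. The bar is the mean ± SD (n = 6, except 4 in P3 hyperoxia). At P14 Elovl6 and Rfx7 do not overlap between oxygen levels, and 1 hyperoxic mouse has Stmn1 at 56.4 CPM, within the normoxic range.

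No gene changed with hyperoxia at P3 or at P7 (0% of 2566 genes at each age by edgeR, 0 of 2566). The edgeR p was below 0.05 before adjustment for 175 genes at P3 and 122 at P7, and DESeq2 called 1 and 0 genes. Among the smallest p at P3 were those of Gmfg, H2-K1 and Tmem30a, with log2 fold changes of 0.62, 0.59 and 1.76, and of Cux1 and Hspd1, with -1.82 and -1.29 (edgeR adjusted p = 0.120 to 0.189). At P7 they were those of Rbm38, Sf3b1 and Gna13 (0.57, 0.51 and 0.54) and of Mettl23, Mrps15 and Jak2 (-0.74, -1.18 and -1.09, edgeR adjusted p = 0.266 to 0.967). On simulated counts of these mice, the test recovered 47.4% of genes with a 2-fold change at P7 and 25.8% at P3. It recovered 96.9% and 82.1% of genes with a 4-fold change, so that changes of 2-fold could often be missed. The simulation gave all genes the same dispersion, held many changed genes, and set no detection criterion. Recovery in the data may therefore be lower. Without P7 hyperoxia 6, 1 gene changed at P7.

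The effect of hyperoxia itself differed between ages for 3 genes when P14 was compared with P3 (0.117%), Stmn1 (log2 difference 2.60), Hspd1, a mitochondrial chaperonin (1.73), and Ptma, prothymosin α (0.84), each with an edgeR adjusted p of 0.0464. Hspd1 was at 87.0 to 358 CPM in normoxia (median 154) and 76.5 to 90.2 CPM in hyperoxia (median 87.0) at P3, and at 75.8 to 144 CPM (median 115) and 94.1 to 191 CPM (median 124) at P14. Ptma had medians of 4277 and 3112 CPM at P3 and 1754 and 2455 CPM at P14 in normoxia and hyperoxia. Between P14 and P7, Stmn1 alone differed (0.039%; log2 difference 3.15, edgeR adjusted p = 0.00317). With mitotic cells left out, no gene differed in either comparison. The values of Stmn1 were then 0.07 and 0.99, that of Ptma was 0.41, and that of Hspd1 was 1.53 (edgeR adjusted p = 0.278). Without the pool of P3 mice alone none of the 3 genes passed, and DESeq2 called 1 of the 3 and not Stmn1 between P14 and P7.

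In the test without the mouse as a block, no gene passed for a different response to hyperoxia in CD4+ T cells than in CD8+ T cells (0% of 2385 genes by edgeR, 21 P7 and P14 mice with at least 10 cells of both types) or in B cells (0% of 2761 genes, 34 mice). The p was below 0.05 before adjustment for 198 and 125 genes, and DESeq2 called 1 gene in each comparison. The 2 comparisons share the CD4+ T cells. Both types of a comparison came from the same mice, and with the mouse as a block 2 genes passed against CD8+ T cells and 0 against B cells. They were Btg1, an antiproliferative gene of resting lymphocytes (log2 difference of CD4+ minus CD8+ 0.49, SE 0.10, edgeR adjusted p = 0.0153), and Tmsb4x, which encodes the actin-binding thymosin β4 and was named after its value was seen (-0.24, SE 0.05, edgeR adjusted p = 0.0362). At P14 Btg1 had medians of 1858 CPM in normoxia and 1828 CPM in hyperoxia in CD4+ T cells against 1136 and 840 CPM in CD8+ T cells (n = 6 each), and the CD8+ values of hyperoxic mice (639 to 1058 CPM) lay below those of normoxic mice (1071 to 1334 CPM). The CD4+ values of 1590 to 1940 and 1731 to 2358 CPM overlapped. The smallest p against CD8+ T cells were those of Btg1, Ranbp10 and Rbm33, with log2 differences of 0.49, 1.18 and 0.84, and of Atp5j, Mrps21 and Krtcap2, with -0.61, -0.97 and -0.69 (edgeR adjusted p = 0.123 to 0.308). Against B cells they were those of Pmepa1 (1.38, SE 0.32, edgeR adjusted p = 0.113), Sh3bp5 and Kdm2b (0.55 and 0.74) and of Igkc, Ywhaq and Cd74 (-1.97, -0.55 and -1.47). For 5 of the 6 genes that changed over all ages, the difference from CD8+ T cells was 0.52 for Dusp5, 0.45 for Pmepa1, 0.35 for Ier2, -0.18 for Stat3 and 0.18 for Dapl1 on the log2 scale, and none passed (edgeR adjusted p = 0.485 to 0.946).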

How the data were processed

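Lungs of 36 mice were profiled with 10x 3′ v3 chemistry and MULTI-seq in 5 pools and 6 libraries. The authors aligned reads to mm10 with Cell Ranger (3.0.2 per the labels), assigned cells to mice with deMULTIplex, kept cells with one sample barcode that passed filters on genes and mitochondrial UMIs, removed contaminant clusters and annotated 34 types with Seurat. The deposited values used here are raw UMI counts per gene and cell (22100 genes), UMI counts of the sample barcodes, and the annotation of each cell, whose mitochondrial percent column was deposited by the authors and only read. The pool comes from the labels, and the age, oxygen level and mouse of a cell from the authors' annotation. No doublet caller was run here, since cells with more than one sample barcode had been removed.

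UMIs were summed per mouse and tested with edgeR (4.0.16, R 4.3.3; TMM, filterByExpr, quasi-likelihood), with Benjamini-Hochberg adjustment over all genes tested, 1632 over all ages and 2566 for the groups. SE is the log2 fold change over the root of F. CPM of single genes were scaled with TMM factors, except for markers compared between types and Btg1 compared between CD4+ and CD8+ T cells. Those values and the CPM of marker lists were scaled to summed UMIs alone. For shares, an exact permutation test (two-sided) was run over mice. CD4+ and CD8+ T or B cells of the same mouse are paired by that mouse. Replicate numbers pair no other samples. On simulated counts of the P14 mice (2426 genes tested) the test recovered 48.4% of genes changed 2-fold and 98.0% of those changed 4-fold. These simulated counts had the same limits as those for P3 and P7. Alternatives used DESeq2 (1.42.0), other filters, pool, mouse and sex terms, other minimum cell numbers, thinned or drawn cells, and 1 mouse left out. Leaving out a pool or mitotic cells, using single pools and the genes tested within ages were chosen after seeing the data. Genes were named by a fixed rule: every changed gene over all ages, the 5 largest in each direction in other comparisons among genes averaging 5 or more in log2 CPM, the 3 of smallest p in each direction where none changed, the 4 cluster markers, and up to 6 changed genes or the 3 largest in each direction from each of 24 lists. Values of 2 genes that the rule names are not reported here. The members and lists were chosen with earlier results of these data known. Mice are separate animals, p-values set differences between groups against the variation between mice, and sums of few cells are limited by counting error.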

Additional observations from a re-analysis of the deposited data

Results flagged for a closer look

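In 156 sets of 4 or 6 mice, 9 had a mouse far from the others by Dixon's test, and chance alone gives about 1 in 20 (5%). The CD4+ share of P14 hyperoxia 2 was 5.90% and the next highest mouse of its group had 2.83%. The median UMIs per cell were 4759 in P7 normoxia 2 (next 3913) and 2885 in P14 hyperoxia 1 (next 2550). P7 hyperoxia 3 stood apart for Pmepa1 (236 CPM, next 136), Elovl6 (118 CPM, next 29.2) and Nabp1 (68.7 CPM, next 42.1), of which Elovl6 and Nabp1 were among the genes higher in hyperoxia at P14. Elovl6 was at 45.5 CPM in P7 normoxia 6 (next 22.9). Hspd1 was at 358 CPM in P3 normoxia 5 (next 182), the mouse without which the number of genes changed between P3 and P7 in normoxia was 13 and not 88. Itga6 was at 90.2 CPM in P3 hyperoxia 2 (next 45.9).

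The response to hyperoxia differed between ages by the edgeR interaction test for Stmn1 (log2 difference 2.60 between P14 and P3 and 3.15 between P14 and P7), Hspd1 (1.73 between P14 and P3) and Ptma (0.84 between P14 and P3). With mitotic cells left out these were 0.07, 0.99, 1.53 and 0.41 and none passed.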

How the results depend on the processing

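Counts of changed genes moved with the processing, and the cause was not tested except where an alternative by construction tests fewer genes or cells. With DESeq2 the counts were 1 at P3, 1 for P14 against P3 effects, 0 for P14 against P7 effects, and 1 each against CD8+ T and B cells. Without the filter on low counts they were 7 at P3, 7 at P7, 188 for P7 against P3 in normoxia, 181 for P14 against P7, 21 and 13 for the effects at P14 against P3 and P7, and 2 and 5 against CD8+ T and B cells. With the pool as a replicate block they were 21 at P14, 159 for P7 against P3, and 5 and 3 for the effects at P14 against P3 and P7; over all ages 7 genes passed, 5 of them among the 6, and no call changed at P3 (0), at P7 (0) or for the shares. With the mouse as a replicate block the count against CD8+ T cells was 2 and against B cells 0. With at least 25 cells per mouse they were 2 over all ages, 1 at P7, 28 at P14 and 10 for P14 against P7 effects, and no P3 value was possible; with at least 5 cells the P14 count was 8. Without the detection criterion they were 23 at P14 and 3 for P14 against P7 effects, and without the age covariate 0 over all ages. With 10 cells drawn per mouse, which leaves fewer genes to test, they were 0 over all ages, 2 at P7, 0 at P14, and 10, 46 and 110 for P7 against P3, P14 against P7 and P14 against P3 in normoxia. With cells thinned to at most 1000 UMIs they were 0 over all ages, 2 at P14, and 4, 86 and 104 in normoxia. Without cells that held a UMI of Cd8a, Cd8b1, Foxp3, Cd79a or Ms4a1 they were 2 over all ages, 2 at P3 and 2 at P14.

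Of the alternatives chosen after seeing the data, the genes tested within ages left 1 over all ages, the pool P14 2 alone gave 8 at P14, the pool shared by P3 and P7 gave 1 at P3, 3 at P7 and 29 for P7 against P3, leaving out pool P3 gave 0 for P14 against P3 effects, and leaving out mitotic cells gave 3 over all ages, 5 at P14, 6 for P7 against P3, 373 for P14 against P3 in normoxia and 0 for both differences of effects. With each mouse left out in turn, the counts ranged from 1 to 7 over all ages, 0 to 0 at P3, 0 to 1 at P7, 1 to 14 at P14, 13 to 109 for P7 against P3, 279 to 455 for P14 against P7 and 569 to 875 for P14 against P3.

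As a percentage of T cells the share differed by 3.92 points at P3 and by -16.8 at P14 between hyperoxia and normoxia, and in normoxia by -6.40 points from P3 to P7 and 4.20 from P3 to P14 (exact permutation test, adjusted p = 0.611); of lymphoid cells, by 8.67 points from P3 to P14 (exact permutation test, adjusted p = 0.250). On cell numbers edgeR gave log2 fold changes of -1.32 for hyperoxia at P14 (adjusted p = 0.0253) and 1.33 for P14 against P7 (adjusted p = 0.0105). With each mouse left out the differences ranged from -0.323 to 0.0142 points at P3 (0.0142 without P3 normoxia 4), 0.545 to 1.85 at P7, -3.56 to -2.63 at P14, 1.24 to 2.23 from P3 to P7, 2.25 to 3.23 from P7 to P14 (past the threshold only without P7 normoxia 4) and 4.27 to 4.90 from P3 to P14.

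Of the values of single named genes, 1456 of 1839 under other settings and 1949 of 2296 with a mouse left out stayed on the same side of the threshold with the same direction. The direction turned 5 times: S100a10 (0.065, P14 against P7) and Sox4 (0.079, P14 against P3) with 10 cells drawn, and without pool P3 Sparc (0.025, P7 against P3; 0.39, P14 against P3) and Col3a1 (0.69). The pool could not be a block where P14 is set against younger mice.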

Other observations

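Several lists have not been described above for hyperoxia at P14, where the median log2 fold change over all genes was 0.01. Of 14 tested NRF2 targets and antioxidant genes 11 had a positive fitted change (median 0.20), as did 14 of 18 genes induced by dissociation (median 0.10), 8 of 11 genes of activation and memory (median 0.14) and 1 of 8 glucocorticoid-responsive genes (median -0.28). No member of these lists changed at P14. The 4 tested erythroid genes had a median of -5.45, and none changed.

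Of the 18 genes of the CD8 and cytotoxic list, and of the 8 genes of the γδ T cell and ILC2 list found in the table, none reached the level needed for a test between ages or oxygen levels in CD4+ T cells. Of 8 Treg genes 2 did within ages and 0 over all ages, and neither changed.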
